A study of Homo sapiens and Mus musculus with 28 samples.

Results

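Transcripts of 9 immune checkpoint ligands and related inhibitory molecules were followed in 24 RNA-seq libraries of SCC1, a human squamous carcinoma cell line. The 9 genes were picked by symbol: CD274, PDCD1LG2, CD276, VTCN1, PVR, NECTIN2, CD47, LGALS9 and IDO1. These genes and the companion lists below were chosen with earlier results of these data known, so the shares of them called are descriptions only. All 9 were present among the 35135 gene IDs of the count files. Each of the 8 groups had 3 libraries, and levels are CPM, counts scaled by library size with TMM factors.

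R4KO_1_Vehicle and R4KO_2_Vehicle are SCC1 cells with a knockout of REXO4, which encodes an RNA exonuclease, given vehicle, and Ctrl_Vehicle are their controls. KO_2_H151 and KO_2_BX_795 are labelled as the knockout numbered 2 given H-151, an inhibitor of the DNA-sensing adaptor STING, or BX-795, an inhibitor of the kinases TBK1 and PDK1. All these groups, Ctrl_Vehicle included, are called the knockout set. A further trio was labelled iR4, H151_iR4 (iR4 with H-151) and Vehicle, with no knockout in the label. The labels give neither the meaning of iR4 nor doses, times, guides or whether each knockout is a single clone. Nothing in them says that the libraries of a group came from separate cultures, so the p-values measure the spread between these libraries, which may be technical. The comparisons bear on how loss of REXO4, with and without block of the STING and TBK1 route, goes with the tumor cell transcripts that reach immune cells.

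Checkpoint ligands are proteins on or from tumor cells that engage inhibitory receptors on immune cells. PD-L1 (CD274) and PD-L2 (PDCD1LG2) bind PD-1 on T cells, the poliovirus receptor (PVR) and nectin-2 (NECTIN2) bind TIGIT and related receptors on T and NK cells, and CD47 signals through SIRPα on macrophages to block engulfment. Interferons, acting through JAK kinases, STAT factors and IRF1, are known inducers of CD274, LGALS9 and IDO1. An mRNA level does not give the amount of protein at the cell surface.

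In GRCh38 with GENCODE v29, CD274 (ENSG00000120217) lies on chromosome 9 at 5450503-5470566, and its sister gene PDCD1LG2 (ENSG00000197646) begins 40003 bases after it, at 5510570-5571254 on the same strand. CD276 (ENSG00000103855) lies on chromosome 15 at 73683966-73714518, CD47 (ENSG00000196776) on the minus strand of chromosome 3 at 108043094-108091862, and LGALS9 (ENSG00000168961) on chromosome 17 at 27629798-27649560. PVR (ENSG00000073008, 44643798-44663583) and NECTIN2 (ENSG00000130202, 44846175-44889228) are neighbours on the plus strand of chromosome 19, 182591 bases apart. VTCN1 (ENSG00000134258) lies on the minus strand of chromosome 1 at 117143587-117210960. PVR overlaps the same-strand gene CEACAM19 and an antisense gene, NECTIN2 overlaps an antisense gene, and LGALS9 overlaps the same-strand gene AC015688.4. No strand setting of the counting is recorded, so reads in those overlaps cannot be told apart. The counts are summed over a gene and do not separate isoforms.

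Promoter windows came from RefSeq on GRCh38.p14 and ran from 250 bases before the transcription start to 50 bases after it. They were at hand for 7 of the 8 members sought, in 8 windows. IDO1 was not among the members sought, and PDCD1LG2 had no window. The 8 windows were searched on both strands for paired GAAA (GAAA, any 2 bases, GAAA), the kind of element that interferon-stimulated genes carry. The windows are shown for CD274 and LGALS9, the 2 of these 7 members that held it, and for CD47, which did not. Capitals mark the paired element, which here reads TTTC in pairs because all matches lie on the strand opposite to the gene. The window of CD274 is chr9:5450292-5450591 on the plus strand, that of LGALS9 chr17:27630938-27631237 on the plus strand and that of CD47 chr3:108090982-108091281 on the minus strand.
CD274: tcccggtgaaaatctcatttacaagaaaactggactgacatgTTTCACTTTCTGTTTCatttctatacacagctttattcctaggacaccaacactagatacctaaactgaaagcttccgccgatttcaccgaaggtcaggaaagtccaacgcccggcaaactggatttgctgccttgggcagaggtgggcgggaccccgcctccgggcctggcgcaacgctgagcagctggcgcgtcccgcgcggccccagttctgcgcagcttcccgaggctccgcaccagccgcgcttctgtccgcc
LGALS9: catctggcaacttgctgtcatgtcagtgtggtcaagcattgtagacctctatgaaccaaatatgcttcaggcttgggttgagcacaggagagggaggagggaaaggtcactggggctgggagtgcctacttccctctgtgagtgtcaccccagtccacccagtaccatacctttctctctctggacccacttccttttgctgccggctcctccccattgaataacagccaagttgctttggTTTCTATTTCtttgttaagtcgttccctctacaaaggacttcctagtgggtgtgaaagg
CD47: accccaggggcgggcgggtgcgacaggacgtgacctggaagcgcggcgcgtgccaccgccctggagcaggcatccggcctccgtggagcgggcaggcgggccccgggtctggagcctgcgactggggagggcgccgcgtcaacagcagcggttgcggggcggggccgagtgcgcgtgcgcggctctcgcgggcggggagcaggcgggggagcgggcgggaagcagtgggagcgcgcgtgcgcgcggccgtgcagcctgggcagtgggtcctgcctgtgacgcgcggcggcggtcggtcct

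CD274 held 2 overlapping matches to the paired element, beginning at positions -208 and -202 relative to the start, and LGALS9 held 1, beginning at -9. Of 35116 promoters of the same length, 3.57% hold the element. The palindrome TTCNNNGAA, the core that STAT factors bind, was found in the CD274 window alone among the 8, at -125, and in 7.66% of all promoters. An NF-kB motif was found in 1 of the 2 CD276 windows, against 11.3% of all promoters. The windows of CD47, PVR, NECTIN2 and VTCN1 held none of the 3 motifs, which says only that these letters are not in these bases.

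**Figure D1:**
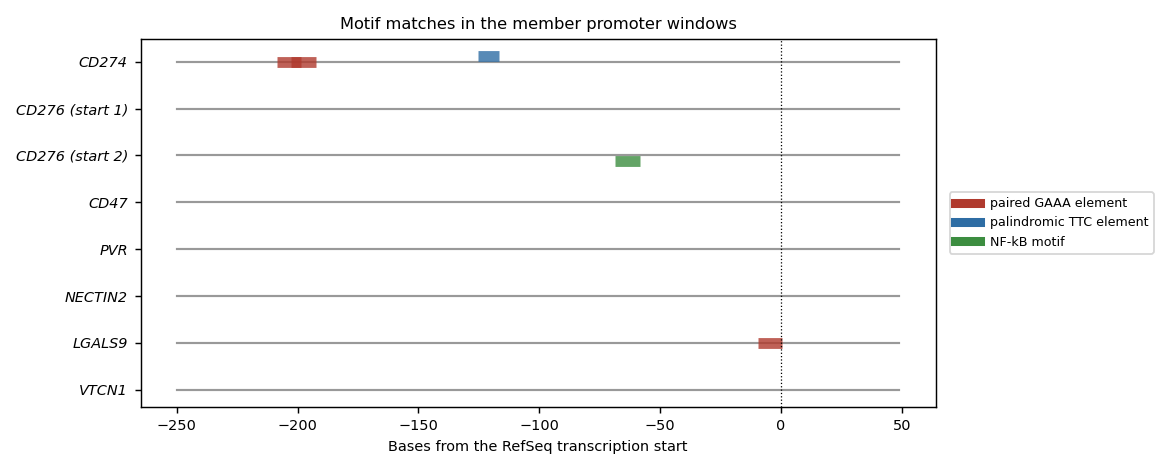
Matches to 3 motifs in the promoter windows of 7 members, by distance in bases from the RefSeq transcription start (CD276 has 2 starts). The paired GAAA element appears in the windows of CD274 and LGALS9, the palindrome in that of CD274 and the NF-kB motif in 1 window of CD276.

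Libraries held 16041474 to 27937636 counts. REXO4 was at 9.13, 9.77 and 9.24 CPM in R4KO_1_Vehicle and 6.94, 7.0 and 4.95 CPM in R4KO_2_Vehicle, against 73.9, 77.1 and 70.7 CPM in Ctrl_Vehicle. It was at 63.0, 58.1 and 63.1 CPM in iR4, against 92.1, 98.6 and 97.7 CPM in Vehicle. All 11 squamous epithelial markers were expressed. They summed to 3796 to 4333 CPM in R4KO_1_Vehicle, 4290.1 to 4385 CPM in R4KO_2_Vehicle, 2845 to 2884 CPM in KO_2_H151 and 3372 to 3420.0 CPM in KO_2_BX_795, against 5285 to 5562 CPM in Ctrl_Vehicle. Against Ctrl_Vehicle, 11 of the 11 were called lower in KO_2_H151 (beside 26.9% of all genes, median log2 fold change -0.80). In KO_2_BX_795 11 were also lower (beside 28.0%, median -0.56). R4KO_1_Vehicle had 3 higher and 7 lower (beside 33.0% and 31.4%), and R4KO_2_Vehicle 3 higher and 7 lower (beside 34.0% and 32.2%). The 11 markers summed to 3863 to 3921 CPM in iR4 and 2921 to 3095 CPM in H151_iR4, against 3964 to 4135 CPM in Vehicle. Their part in the results was not tested. The 12 leukocyte markers each averaged under 1 CPM and summed to at most 1.92 CPM, with CD8A and MS4A1 at 0 throughout, and the 4 endothelial markers summed to at most 2.10 CPM. The 6 fibroblast markers, led by COL1A1, summed to 38.6 to 42.3 CPM in R4KO_1_Vehicle, 39.1 to 42.5 CPM in R4KO_2_Vehicle, 38.3 to 39.4 CPM in KO_2_H151 and 46.4 to 47.8 CPM in KO_2_BX_795, against 23.5 to 24.4 CPM in Ctrl_Vehicle. They summed to 33.9 to 39.8 CPM in iR4 and 25.5 to 27.4 CPM in H151_iR4, against 22.5 to 25.7 CPM in Vehicle; their part in the results was not tested. In bulk RNA, fewer cells of a type and less RNA per cell cannot be told apart. Of a companion list of 11 immune receptors, not all of which bind a member, 9 averaged under 1 CPM. CTLA4 and CD28 were at 0, and the highest was SIRPA, the receptor of CD47, at 41.9 CPM.

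The libraries of KO_2_H151 and KO_2_BX_795 stood apart from the knockout given vehicle. They held 21355791 to 27937636 counts, against 17470214 to 17685433 in the 6 vehicle-treated knockout libraries. By the root-mean-square difference in log2 CPM over genes, KO_2_H151 lay 0.774 from R4KO_2_Vehicle, 0.674 from R4KO_1_Vehicle, 0.517 from Ctrl_Vehicle and 0.430 from Vehicle. KO_2_BX_795 lay 0.778, 0.682, 0.557 and 0.489 from the same groups. REXO4 averaged 17.9 CPM in KO_2_H151 and 18.9 CPM in KO_2_BX_795, against 6.29 CPM in R4KO_2_Vehicle. Of 6 genes at 1 CPM or more in R4KO_1_Vehicle and under 0.25 CPM in R4KO_2_Vehicle and Ctrl_Vehicle, 5 were at 1 CPM or more in KO_2_H151 and 5 in KO_2_BX_795. Their median was also higher in Vehicle (0.357 CPM), H151_iR4 (0.398) and iR4 (0.457) than in Ctrl_Vehicle (0.0585) and R4KO_2_Vehicle (0.0438). Of 2 genes that marked R4KO_2_Vehicle in the same way, 1 was at 1 CPM or more in KO_2_H151 and 1 in KO_2_BX_795. The inhibitor and any other difference between these libraries and R4KO_2_Vehicle cannot be told apart, so the inhibitor groups are also set against R4KO_1_Vehicle, Ctrl_Vehicle and Vehicle.

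Per kilobase of exon, the members fell into an abundant and a scarce class. Group means of PVR were 25.3 to 48.9 CPM per kilobase, those of CD276 20.6 to 31.5, of CD47 10.3 to 19.6 and of NECTIN2 9.79 to 14.8. LGALS9 had group means of 0.173 to 1.79 CPM per kilobase and CD274 of 0.127 to 1.24. PDCD1LG2, IDO1 and VTCN1 reached at most 0.289, 0.263 and 0.0694 CPM per kilobase in any group. Over all 24 libraries these 3 genes had 166, 98 and 33 counts, against 71607 for CD276.

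**Figure D2:**
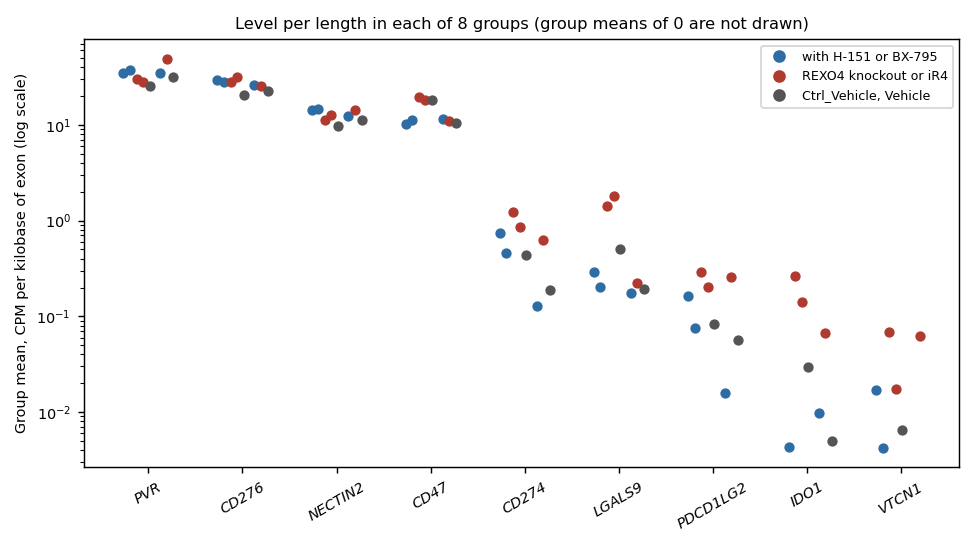
Group means of the 9 members in CPM per kilobase of exon on a log scale, 1 point per group, colored by kind of group. Group means of 0 are not drawn (IDO1 in KO_2_BX_795, VTCN1 in H151_iR4 and Vehicle). PVR, CD276, NECTIN2 and CD47 lie between 9.79 and 48.9, and the other 5 stay at or under 1.79.

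With loss of REXO4, most of the ligands that could be tested were higher. In R4KO_1_Vehicle against Ctrl_Vehicle, 6 of 7 tested members were higher at an edgeR quasi-likelihood p under 0.05 after Benjamini-Hochberg adjustment over all genes tested, beside 33.0% of all genes. In edgeR 0 were lower, beside 31.4% of all genes, with 0 at an unadjusted p under 0.05 and 0 in DESeq2. In R4KO_2_Vehicle against Ctrl_Vehicle, 7 of 7 were higher, beside 34.0% of all genes. In edgeR 0 were lower, beside 32.2%, again with 0 unadjusted and 0 in DESeq2. The members' median log2 fold change was 0.62 in R4KO_1_Vehicle and 0.45 in R4KO_2_Vehicle, against 0.020 and 0.018 over all genes tested. IDO1 passed the filter on low counts through 5 knockout libraries and no others, so these counts describe the members that passed and not all 9. Without IDO1, 5 of 6 were higher in R4KO_1_Vehicle and 6 of 6 in R4KO_2_Vehicle, with medians of 0.49 and 0.36. Both comparisons share the Ctrl_Vehicle libraries. R4KO_2_Vehicle against R4KO_1_Vehicle gave 1 member higher and 3 lower, beside 15.1% and 16.6% of all genes; without R4KO_1_Vehicle replicate 3 the counts were 4 and 0, and without R4KO_2_Vehicle replicate 1 the lower count was 1.

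In iR4 against Vehicle, 6 of 7 tested members were higher, beside 37.1% of all genes. In edgeR 0 were lower, beside 34.8%, with 0 at an unadjusted p under 0.05 and 0 in DESeq2. Here PDCD1LG2 passed the filter, through the 3 iR4 libraries alone, and IDO1 did not; without PDCD1LG2, 5 of 6 were higher. H151_iR4 against iR4 gave 4 of 7 lower, beside 36.3% of all genes, and 3 of 6 without PDCD1LG2. In edgeR 0 were higher, beside 35.1%, with 0 unadjusted and 0 in DESeq2. H151_iR4 against Vehicle gave 3 higher, beside 8.71%; in edgeR 0 were lower, beside 9.58%, with 0 unadjusted and 0 in DESeq2. The 3 were CD276 (0.19 ± 0.034), CD47 (0.13 ± 0.040) and PVR (0.14 ± 0.040), and without H151_iR4 replicate 1 or Vehicle replicate 2 the count was 1.

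With the inhibitors the knockout gave a split. KO_2_H151 against R4KO_2_Vehicle had 2 of 7 tested members higher and 4 lower, beside 35.7% and 37.0% of all genes. KO_2_BX_795 against R4KO_2_Vehicle had 2 higher and 4 lower, beside 36.4% and 37.1%; without R4KO_2_Vehicle replicate 1 or 3 the higher count was 1. With R4KO_1_Vehicle in its place, KO_2_H151 had 2 higher and 5 lower, beside 33.0% and 35.3%. KO_2_BX_795 had 2 and 3 there, beside 33.8% and 35.2%; without R4KO_1_Vehicle replicate 1 the lower count was 5. Without IDO1, each of the 4 lower counts over all libraries was 1 less. The members' median log2 fold change against R4KO_2_Vehicle was -0.82 with H-151 and -0.77 with BX-795, against -0.011 and -0.0088 over all genes; without IDO1 the medians were -0.42 and -0.35. Most genes tested were called in these comparisons, and the shares of members called are to be read against that.

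Set against the control cells, KO_2_H151 had 3 members higher and 2 lower than Ctrl_Vehicle, beside 26.0% and 26.9% of all genes. KO_2_BX_795 had 4 higher and 3 lower, beside 27.7% and 28.0%. Against Vehicle, KO_2_H151 had 4 of 8 higher, beside 23.0%; in edgeR 0 were lower, beside 22.7%, with 0 unadjusted and 0 in DESeq2. KO_2_BX_795 had 6 of 8 higher than Vehicle, beside 26.1%, and 3 in DESeq2 or without KO_2_BX_795 replicate 2. In edgeR 0 were lower, beside 25.6%, with 0 unadjusted and 0 in DESeq2.

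**Figure D3:**
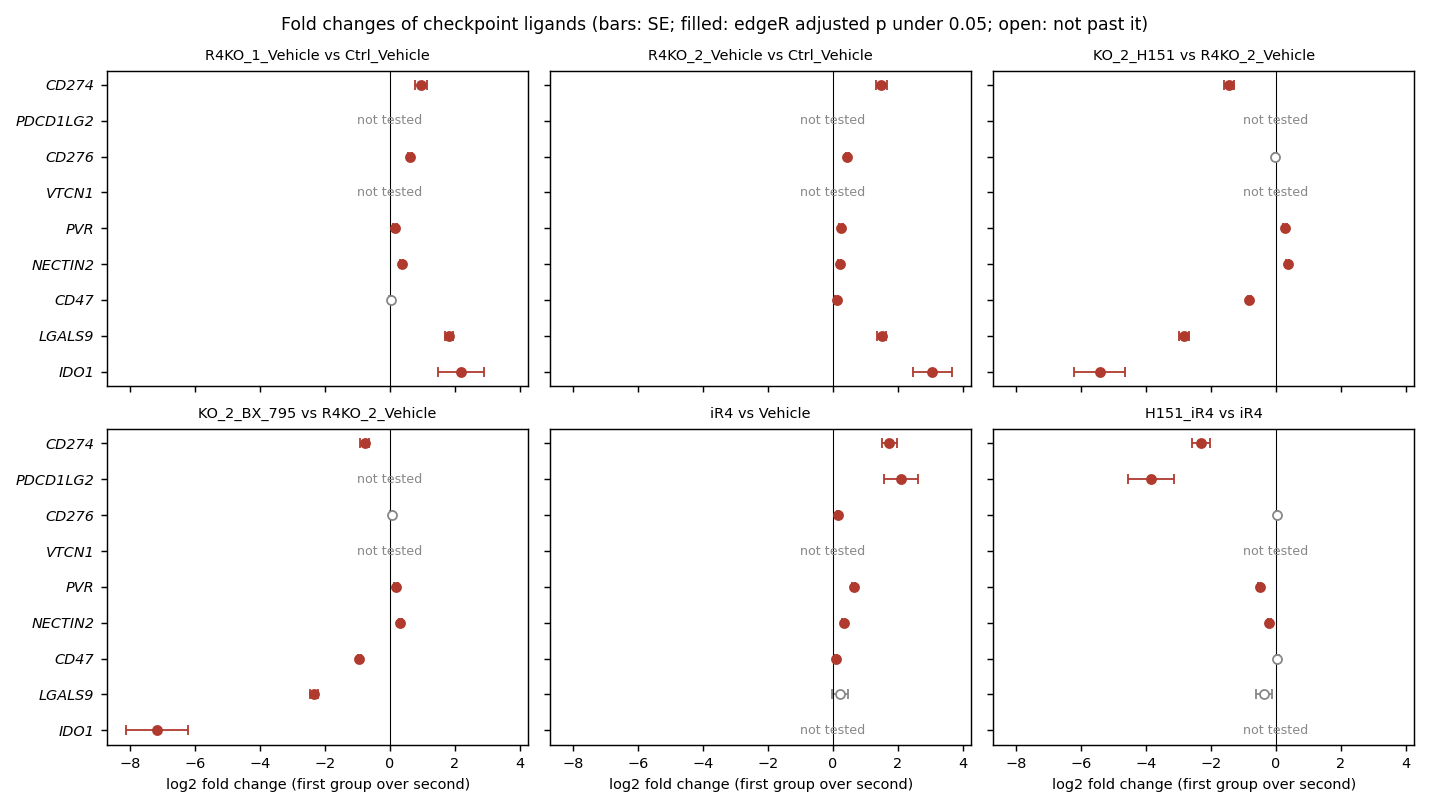
Log2 fold change of each member with its SE in 6 comparisons, the first-named group over the second; filled points passed an edgeR adjusted p of 0.05. CD274 lies right of 0 in both knockouts and iR4 and left of 0 with either inhibitor; the IDO1 points with inhibitors rest on 1 and 0 counts and their position depends on the prior count. IDO1 in the knockout libraries and PDCD1LG2 in the trio passed the filter through the higher group alone.

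CD274, which encodes PD-L1, was higher in both knockouts and in iR4. It was lower in H151_iR4 than in iR4, and lower in KO_2_H151 than in both vehicle-treated knockouts. It was at 2.80, 4.15 and 3.53 CPM in R4KO_1_Vehicle and 5.42, 5.58 and 4.32 CPM in R4KO_2_Vehicle, against 1.58, 1.80 and 2.05 CPM in Ctrl_Vehicle. Every knockout library lay above every Ctrl_Vehicle library. The log2 fold change was 0.96 ± 0.18 (SE, edgeR adjusted p = 7.01e-05) in R4KO_1_Vehicle and 1.5 ± 0.17 (edgeR adjusted p = 6.11e-08) in R4KO_2_Vehicle, and R4KO_2_Vehicle exceeded R4KO_1_Vehicle by 0.54 ± 0.14 (edgeR adjusted p = 0.00603). In the trio it was at 2.42, 2.49 and 2.84 CPM in iR4, against 0.547, 0.862 and 0.889 CPM in Vehicle, with all iR4 libraries above. The log2 fold change in iR4 was 1.74 ± 0.24 (edgeR adjusted p = 5.81e-07).

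With H-151, CD274 was at 0.724, 0.618 and 0.227 CPM in H151_iR4, below all 3 iR4 libraries (log2 fold change -2.31 ± 0.27, edgeR adjusted p = 3.93e-08). H151_iR4 overlapped Vehicle and was not called against it (-0.56 ± 0.36, edgeR adjusted p = 0.303). In the knockout with H-151 the libraries lay close together, at 1.88, 1.85 and 1.93 CPM in KO_2_H151, inside the range of Ctrl_Vehicle and below both vehicle-treated knockouts. The log2 difference was -1.44 ± 0.15 against R4KO_2_Vehicle (edgeR adjusted p = 2.17e-08), -0.90 ± 0.16 against R4KO_1_Vehicle (edgeR adjusted p = 4.89e-05) and 0.052 ± 0.19 against Ctrl_Vehicle (edgeR adjusted p = 0.842).

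With BX-795 CD274 was higher than with H-151, at 2.99, 3.10 and 2.96 CPM in KO_2_BX_795. That was -0.77 ± 0.14 on the log2 scale against R4KO_2_Vehicle (edgeR adjusted p = 4.00e-05), but not called against R4KO_1_Vehicle (-0.23 ± 0.15, edgeR adjusted p = 0.175), whose range it overlapped. Without R4KO_1_Vehicle replicate 1 that difference was -0.37 (edgeR adjusted p = 0.0431). Between the inhibitors, in the fit of the 15 libraries of the knockout set, CD274 was called, 0.67 ± 0.16 higher in KO_2_BX_795 than in KO_2_H151 (edgeR adjusted p = 0.0100, 1 of 7 tested, beside 5.67% of all genes). In that edgeR fit 0 members were lower, beside 3.99%, with 1 at an unadjusted p under 0.05 and 0 in DESeq2; a fit of the 2 groups alone called CD47 lower (-0.12, edgeR adjusted p = 0.0308). Against Ctrl_Vehicle, KO_2_BX_795 still held more CD274 (0.72 ± 0.18, edgeR adjusted p = 0.00138). Against Vehicle both inhibitor groups did, by 1.28 ± 0.24 in KO_2_H151 and 1.96 ± 0.22 in KO_2_BX_795 (edgeR adjusted p = 5.48e-05 and 1.02e-08). In KO_2_H151 and KO_2_BX_795 the drug and the set of libraries cannot be told apart in the CD274 differences.

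PDCD1LG2, the gene of the other PD-1 ligand, was scarce. Its counts summed over 3 libraries were 27 in R4KO_1_Vehicle and 39 in R4KO_2_Vehicle, against 10 in Ctrl_Vehicle. Scaled for depth, the ratio to Ctrl_Vehicle was 2.46 (1.15 to 5.70) in R4KO_1_Vehicle and 3.51 (1.72 to 7.88) in R4KO_2_Vehicle; the exact 95% intervals in parentheses, here and below, cover counting error only. With inhibitors the ratio to R4KO_2_Vehicle was 0.271 (0.133 to 0.518) in KO_2_H151 and 0.562 (0.333 to 0.936) in KO_2_BX_795. It did not pass the filter in the fit of the knockout set. With no filter it was called higher in R4KO_1_Vehicle and R4KO_2_Vehicle against Ctrl_Vehicle (edgeR adjusted p = 0.0451 and 0.00118) and lower in KO_2_H151 against R4KO_2_Vehicle (0.000185), and not called in KO_2_BX_795 (0.0781).

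In the trio PDCD1LG2 was at 0.807, 0.477 and 0.532 CPM in iR4, against 0, 0.203 and 0.197 CPM in Vehicle, without overlap, a ratio of summed counts of 4.46 (2.05 to 11.04). It was at 0.0658, 0.0476 and 0 CPM in H151_iR4, below every iR4 library. Since it passed the filter through the iR4 libraries alone, its tests under that filter are not given; with no filter it was called in iR4 against Vehicle and in H151_iR4 against iR4 (edgeR adjusted p = 0.000244 and 3.76e-07). The second difference rests on 2 counts in H151_iR4, against 39 in iR4, a ratio of 0.0607 (0.00710 to 0.234).

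CD276, which encodes the B7 family member B7-H3, was abundant and higher in the knockouts. It was at 159.6, 174 and 189.7 CPM in R4KO_1_Vehicle and 154, 157 and 156 CPM in R4KO_2_Vehicle, against 114, 119 and 110.0 CPM in Ctrl_Vehicle, with no overlap. The log2 fold change was 0.62 ± 0.050 (edgeR adjusted p = 4.61e-10) in R4KO_1_Vehicle and 0.45 ± 0.050 (edgeR adjusted p = 6.58e-08) in R4KO_2_Vehicle. With inhibitors it was at 159, 158 and 149.8 CPM in KO_2_H151 and 167, 158 and 167 CPM in KO_2_BX_795, and neither was called against R4KO_2_Vehicle (-0.014 ± 0.049 and 0.063 ± 0.049, edgeR adjusted p = 0.807 and 0.248). Against R4KO_1_Vehicle, KO_2_H151 was lower (-0.18 ± 0.048, edgeR adjusted p = 0.00194) and KO_2_BX_795 was not called (-0.11 ± 0.048, edgeR adjusted p = 0.0516), except without R4KO_1_Vehicle replicate 1 (-0.17, 0.00209). Both lay above Ctrl_Vehicle, by 0.44 ± 0.050 and 0.51 ± 0.050 on the log2 scale (edgeR adjusted p = 2.21e-07 and 1.69e-08).

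In the trio CD276 differed less, at 139, 142 and 141 CPM in iR4 and 147, 143 and 143 CPM in H151_iR4, against 128, 124 and 127 CPM in Vehicle. Both lay above Vehicle without overlap. The log2 fold change was 0.16 ± 0.034 in iR4 against Vehicle (edgeR adjusted p = 0.000203) and 0.031 ± 0.034 in H151_iR4 against iR4 (edgeR adjusted p = 0.422). VTCN1, which encodes the related protein B7-H4, was at the edge of detection and passed the filter nowhere. It had 3 counts in R4KO_1_Vehicle and 12 in R4KO_2_Vehicle, against 1 in Ctrl_Vehicle, and 12 in iR4, against 0 in Vehicle. Taking 3 counts over the group as the floor, iR4 was at least 3.66-fold higher than Vehicle and H151_iR4, also with 0 counts, at least 3.38-fold lower than iR4. The exact intervals, which also cover the counting error in iR4, reached down to a ratio of 2.54 for iR4 to Vehicle and up to 0.426 for H151_iR4 to iR4.

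Of the TIGIT ligands, NECTIN2 was higher in iR4 and in both knockouts. PVR was higher in iR4 and in R4KO_2_Vehicle, while its call in R4KO_1_Vehicle rests on 1 library. Both were higher in the knockout with either inhibitor than in R4KO_2_Vehicle. PVR was at 169, 169 and 179 CPM in iR4, against 109, 109 and 113 CPM in Vehicle, well apart (log2 fold change 0.64 ± 0.038, edgeR adjusted p = 1.34e-13). With H-151 it was at 128, 118 and 121 CPM in H151_iR4, between the other groups of the trio (-0.50 ± 0.038 against iR4, edgeR adjusted p = 1.83e-11).

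In the knockouts PVR was at 92.2, 92.0 and 113 CPM in R4KO_1_Vehicle and 102, 116 and 103 CPM in R4KO_2_Vehicle, against 88.7, 94.2 and 84.6 CPM in Ctrl_Vehicle. R4KO_1_Vehicle overlapped Ctrl_Vehicle and R4KO_2_Vehicle did not. In R4KO_2_Vehicle the log2 fold change was 0.26 ± 0.065 (edgeR adjusted p = 0.00112). The call in R4KO_1_Vehicle (0.16 ± 0.065, edgeR adjusted p = 0.0373) rests on its replicate 3, without which PVR differed by 0.056 (edgeR adjusted p = 0.380). It was also lost without Ctrl_Vehicle replicate 1 or 3 (edgeR adjusted p = 0.0841 and 0.154), in DESeq2 (adjusted p = 0.0544) and in a fit of these 2 groups alone (0.0868).

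With the inhibitors in the knockout PVR was higher than in R4KO_2_Vehicle, where CD274 was lower. The drug and the set of libraries cannot be told apart in these differences. PVR was at 132, 127 and 132 CPM in KO_2_H151 and 119, 125 and 124 CPM in KO_2_BX_795, all above the R4KO_2_Vehicle libraries. The log2 difference from R4KO_2_Vehicle was 0.28 ± 0.062 with H-151 (edgeR adjusted p = 0.000426) and 0.19 ± 0.062 with BX-795 (edgeR adjusted p = 0.00987). The BX-795 call was lost without R4KO_2_Vehicle replicate 1 or 3 (edgeR adjusted p = 0.0517 and 0.0513). Against R4KO_1_Vehicle the differences were 0.38 ± 0.063 and 0.29 ± 0.063 (edgeR adjusted p = 1.35e-05 and 0.000276). Against Vehicle they were 0.24 ± 0.057 and 0.15 ± 0.057 (edgeR adjusted p = 0.000916 and 0.0288); the one with BX-795 was lost in DESeq2 (adjusted p = 0.0749), with RLE factors (0.0545) and without KO_2_BX_795 replicate 2 or 3 or Vehicle replicate 1 or 2 (0.0795 to 0.0858).

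NECTIN2 was at 46.8, 46.2 and 48.1 CPM in R4KO_1_Vehicle and 41.7, 43.2 and 42.2 CPM in R4KO_2_Vehicle, against 37.9, 37.8 and 34.3 CPM in Ctrl_Vehicle, without overlap. The log2 fold changes were 0.37 ± 0.051 and 0.21 ± 0.051 (edgeR adjusted p = 1.71e-06 and 0.00108). In the trio it was at 53.2, 50.8 and 55.0 CPM in iR4 and 44.5, 47.5 and 46.6 CPM in H151_iR4, against 39.7, 43.7 and 42.8 CPM in Vehicle. As for PVR, H151_iR4 lay between iR4 and Vehicle, with 0.34 ± 0.050 in iR4 against Vehicle and -0.20 ± 0.050 in H151_iR4 against iR4 (edgeR adjusted p = 1.45e-06 and 0.000875). With inhibitors in the knockout it was at 54.0, 57.2 and 54.7 CPM in KO_2_H151 and 55.0, 51.4 and 54.0 CPM in KO_2_BX_795, above R4KO_2_Vehicle by 0.37 ± 0.048 and 0.32 ± 0.048 (edgeR adjusted p = 4.48e-07 and 2.97e-06).

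CD47 differed little with knockout or iR4, and far more between sets of libraries. It was at 142, 152 and 158 CPM in R4KO_1_Vehicle and 157, 163 and 164 CPM in R4KO_2_Vehicle, against 153, 145 and 146 CPM in Ctrl_Vehicle. R4KO_1_Vehicle overlapped Ctrl_Vehicle and was not called (0.034 ± 0.046, edgeR adjusted p = 0.531). R4KO_2_Vehicle lay above it by 0.12 ± 0.046 (edgeR adjusted p = 0.0217). That call was lost without R4KO_2_Vehicle replicate 2 or 3 (edgeR adjusted p = 0.0593 and 0.0735) and without Ctrl_Vehicle replicate 2 or 3 (0.0777 and 0.0609).

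The iR4 libraries had 92.7, 87.8 and 92.5 CPM of CD47, against 87.1, 83.0 and 87.2 CPM in Vehicle, a log2 fold change of 0.091 ± 0.039 (edgeR adjusted p = 0.0417). The call was lost with RLE factors (0.0672), in DESeq2 (0.183), with no filter (0.148), with the 2 groups alone (0.0548) and over all 24 libraries (0.0898). It was also lost without iR4 replicate 1 or 3 or any single Vehicle library (edgeR adjusted p = 0.0558 to 0.211). With H-151 on this background CD47 was at 96.6, 94.7 and 91.1 CPM in H151_iR4 and not called against iR4 (0.043 ± 0.039, edgeR adjusted p = 0.329).

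With inhibitors in the knockout CD47 was at 88.2, 92.8 and 95.3 CPM in KO_2_H151 and 86.2, 87.8 and 79.7 CPM in KO_2_BX_795, far below the vehicle-treated knockouts. The log2 difference from R4KO_2_Vehicle was -0.82 ± 0.047 and -0.94 ± 0.047 (edgeR adjusted p = 6.77e-13 and 6.92e-14). It was -0.73 ± 0.047 and -0.85 ± 0.047 from R4KO_1_Vehicle, and -0.70 ± 0.047 and -0.82 ± 0.047 from Ctrl_Vehicle. Vehicle, with neither knockout nor inhibitor in its label, was about as low, and the inhibitor groups differed from it by 0.10 ± 0.045 and -0.022 ± 0.045 (edgeR adjusted p = 0.0608 and 0.712). Whether the lower CD47 went with the drug or with the set of libraries cannot be told apart.

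LGALS9 encodes galectin-9, a ligand of TIM-3, an inhibitory receptor on T cells. It was at 10.03, 9.67 and 10.9 CPM in R4KO_1_Vehicle and 8.03, 7.52 and 8.90 CPM in R4KO_2_Vehicle, against 2.87, 2.44 and 3.33 CPM in Ctrl_Vehicle, with every knockout library above every control. The log2 fold changes were 1.83 ± 0.13 and 1.5 ± 0.13 (edgeR adjusted p = 4.21e-11 and 1.38e-09). In the trio LGALS9 was at 1.43, 1.27 and 1.15 CPM in iR4, against 1.15, 1.32 and 0.839 CPM in Vehicle, with overlap and no call (0.23 ± 0.24, edgeR adjusted p = 0.400). H151_iR4, at 0.987, 1.19 and 0.794 CPM, differed from iR4 by -0.36 ± 0.25 (edgeR adjusted p = 0.199).

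With inhibitors in the knockout LGALS9 was at 1.11, 1.23 and 1.12 CPM in KO_2_H151 and 1.41, 1.91 and 1.61 CPM in KO_2_BX_795, below R4KO_2_Vehicle and Ctrl_Vehicle. The log2 difference from R4KO_2_Vehicle was -2.83 ± 0.15 and -2.33 ± 0.14 (edgeR adjusted p = 1.25e-13 and 9.19e-13), and from Ctrl_Vehicle -1.33 ± 0.18 and -0.83 ± 0.17 (edgeR adjusted p = 2.50e-06 and 0.000242). As for CD47, Vehicle had a like level: KO_2_H151 differed from it by 0.067 ± 0.22 (edgeR adjusted p = 0.844) and KO_2_BX_795 by 0.57 ± 0.20 (edgeR adjusted p = 0.0217, lost in DESeq2 at 0.0761, without KO_2_BX_795 replicate 2 at 0.101 and without Vehicle replicate 3 at 0.176).

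LGALS9B and LGALS9C are near-identical copies of LGALS9 elsewhere on chromosome 17, and the authors' counting could split reads between the 3, so the LGALS9 values are uncertain to that extent. In R4KO_2_Vehicle against Ctrl_Vehicle, LGALS9B had a log2 fold change of 1.09 ± 0.33 and LGALS9C of 1.85 ± 0.26. In R4KO_1_Vehicle, where LGALS9 itself differed by 1.83 ± 0.13, LGALS9B was not called (0.51 ± 0.36, edgeR adjusted p = 0.225) and LGALS9C differed by 0.85 ± 0.30 (edgeR adjusted p = 0.0163). In iR4 against Vehicle, where LGALS9 was not called, both copies were called higher, by 1.83 ± 0.34 and 1.35 ± 0.35, and in H151_iR4 against iR4 both were called lower (-2.26 ± 0.38 and -1.96 ± 0.39). Per kilobase of exon, the copies averaged 0.438 and 0.319 CPM per kilobase in iR4, and LGALS9 itself 0.225.

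IDO1, the interferon-inducible enzyme that starts the breakdown of tryptophan to kynurenine, was near the limit of detection and highest in the knockouts. Its gene (ENSG00000131203) lies on the plus strand of chromosome 8 at 39902275-39928444, where a sense intronic gene and a pair of antisense genes overlap it, so reads there cannot be told apart. It was at 0.158, 0.525 and 0.707 CPM in R4KO_1_Vehicle and 0.782, 0.947 and 0.842 CPM in R4KO_2_Vehicle, against 0.0586, 0.232 and 0 CPM in Ctrl_Vehicle. R4KO_1_Vehicle overlapped Ctrl_Vehicle and R4KO_2_Vehicle did not. In counts this was 26 and 49, against 5 in Ctrl_Vehicle, ratios of 4.74 (1.79 to 15.8) and 8.81 (3.53 to 28.3). Since IDO1 passed the filter through vehicle-treated knockout libraries alone, its tests against them under that filter are not given as support. With no filter it was called in both (edgeR adjusted p = 0.00268 in R4KO_1_Vehicle and 4.12e-07 in R4KO_2_Vehicle). Under the filter the call in R4KO_1_Vehicle was lost without Ctrl_Vehicle replicate 3 (edgeR adjusted p = 0.0505).

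With the inhibitors IDO1 had 1 count in KO_2_H151 and 0 in KO_2_BX_795, against 49 in R4KO_2_Vehicle. Vehicle, with neither knockout nor inhibitor in its label, was about as low, with 1 count. Neither inhibitor group was called against Vehicle (-0.19 ± 1.76 and -1.91 ± 1.81 on the log2 scale, edgeR adjusted p = 0.941 and 0.391). Whether the lower IDO1 went with the drug or with the set of libraries cannot be told apart. KO_2_H151 had a ratio of 0.0166 (0.000412 to 0.0968) to R4KO_2_Vehicle. KO_2_BX_795 was at least 20.9-fold lower, with 3 counts over the group as its floor, and the exact interval of the ratio, which also covers the counting error of the 49 counts, reached up to 0.0612. The iR4 libraries held 14 counts, against 1 in Vehicle, a ratio of 12.8 (1.95 to 541), and IDO1 did not pass the filter there. Against Ctrl_Vehicle, KO_2_BX_795 was called lower (0 counts against 5, edgeR adjusted p = 0.0371), a call lost without any single KO_2_BX_795 library (0.0672 to 0.0840) or without Ctrl_Vehicle replicate 2 (0.265).

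**Figure D4:**
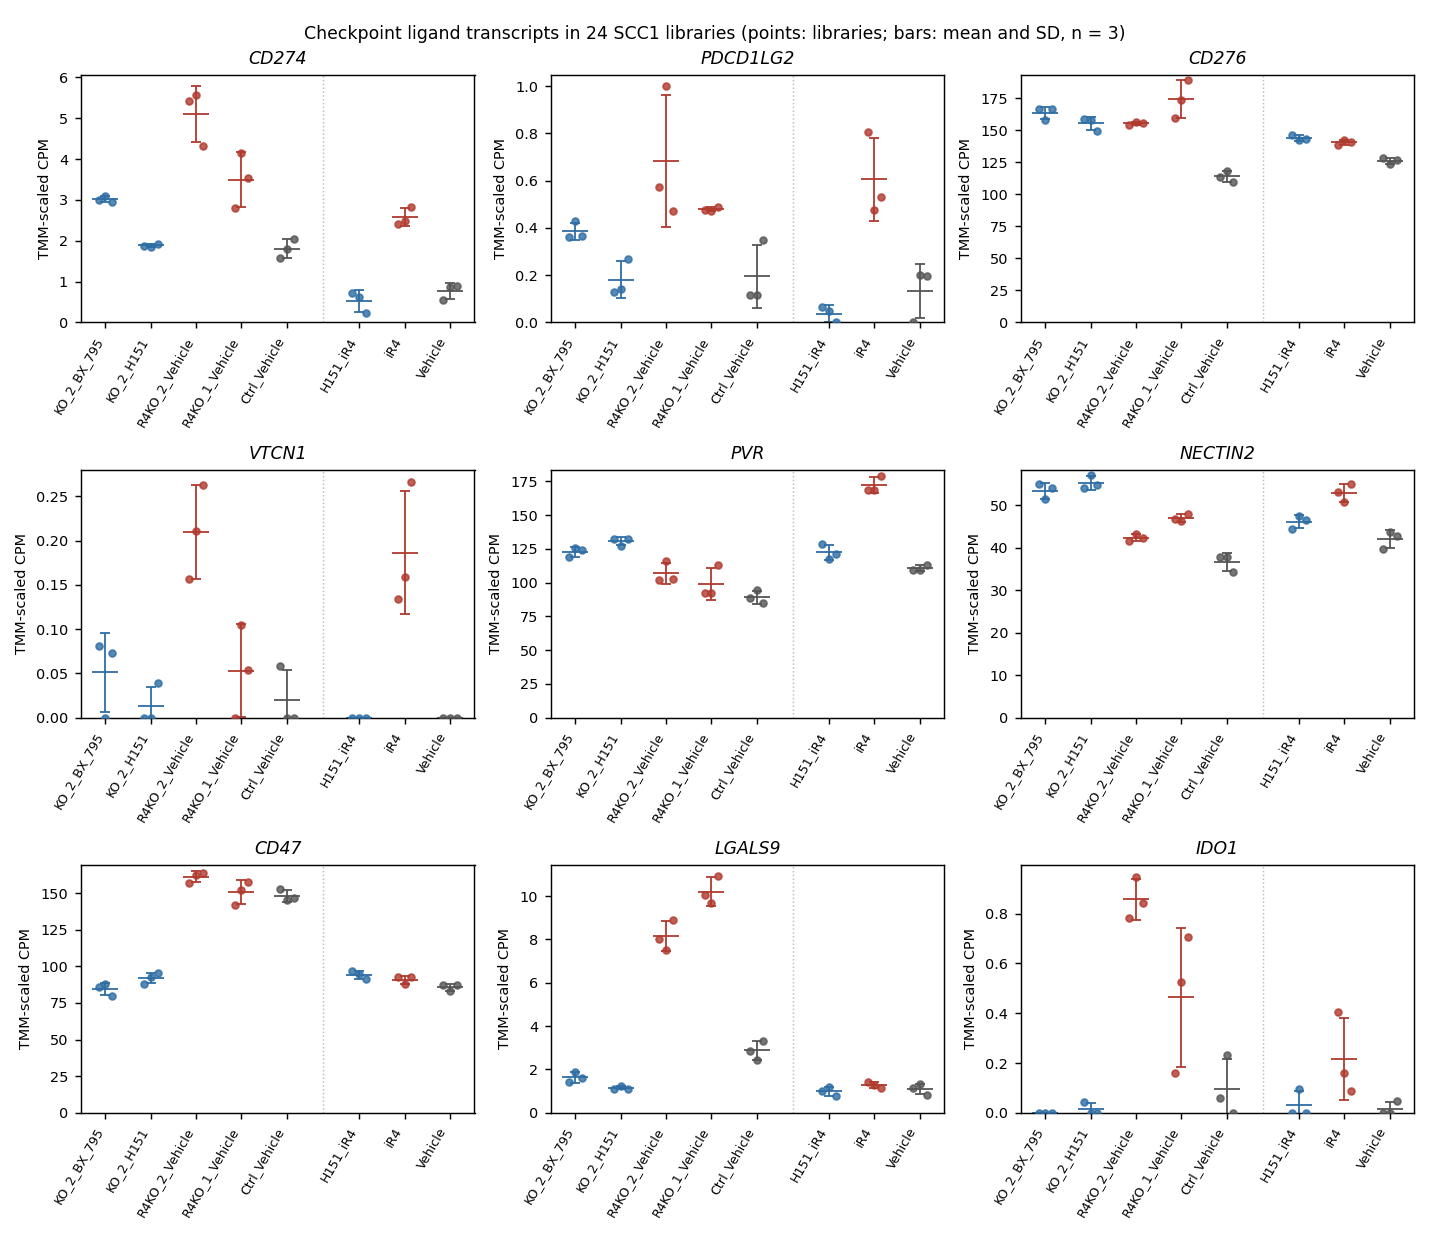
TMM-scaled CPM of the 9 members in the 24 libraries, with points for libraries and bars for the mean and SD of 3. The dotted line parts the knockout set, Ctrl_Vehicle included, from the iR4 trio. CD274 is highest in R4KO_2_Vehicle (5.11 CPM on average), and CD47 is low in both inhibitor groups of the knockout and in the whole iR4 trio.

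Ordered by mean level, CD274 ran R4KO_2_Vehicle, R4KO_1_Vehicle, KO_2_BX_795, iR4, KO_2_H151, Ctrl_Vehicle, Vehicle and H151_iR4. Neighbours overlapped for R4KO_1_Vehicle and KO_2_BX_795, for KO_2_H151 and Ctrl_Vehicle, and for Vehicle and H151_iR4. PVR was highest in iR4, at 172 CPM on average and apart from KO_2_H151 at 131, and lowest in Ctrl_Vehicle at 89.2. LGALS9 ran R4KO_1_Vehicle, R4KO_2_Vehicle and Ctrl_Vehicle, each apart from the next, above the other 5 groups, which overlapped their neighbours from KO_2_BX_795 at 1.64 CPM down to H151_iR4 at 0.990. NECTIN2 was highest in KO_2_H151 at 55.3 CPM and lowest in Ctrl_Vehicle at 36.7, and CD276 was highest in R4KO_1_Vehicle at 174 and lowest in Ctrl_Vehicle at 114.

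The difference between the H-151 libraries and those without it was not the same in both sets (H151_iR4 minus iR4, set against KO_2_H151 minus R4KO_2_Vehicle). It differed for 5 of the 8 members tested over all 24 libraries, 2 more positive and 3 more negative in the trio than in the knockout, beside 23.7% and 27.0% of all genes. It was more negative in the trio for PVR (-0.78 ± 0.080, edgeR adjusted p = 2.39e-09), NECTIN2 (-0.58 ± 0.068, edgeR adjusted p = 2.96e-08) and CD274 (-0.87 ± 0.32, edgeR adjusted p = 0.0259). It was more positive for CD47 (0.85 ± 0.063, edgeR adjusted p = 2.14e-12) and LGALS9 (2.46 ± 0.29, edgeR adjusted p = 3.61e-08). PVR and NECTIN2 were lower in H151_iR4 than in iR4 and higher in KO_2_H151 than in R4KO_2_Vehicle. Since KO_2_H151 also differed from R4KO_2_Vehicle in depth, profile and REXO4 level, H-151 and the set of libraries cannot be told apart in these differences. The CD274 difference was lost in DESeq2 (adjusted p = 0.0627), and without replicate 3 of H151_iR4 (-0.52, edgeR adjusted p = 0.189), of iR4 (0.0564) or of R4KO_2_Vehicle (0.0534).

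Against the mean effect of the knockouts, the effect of iR4 was larger for PVR (0.43 ± 0.077, edgeR adjusted p = 7.64e-05) and smaller for CD276 (-0.37 ± 0.059, edgeR adjusted p = 1.41e-05) and LGALS9 (-1.43 ± 0.26, edgeR adjusted p = 8.50e-05). That is 1 of 8 members higher and 2 lower, beside 14.7% and 13.1% of all genes. For CD274 the difference of 0.52 ± 0.30 was not called (edgeR adjusted p = 0.205). The vehicle groups themselves differed, with 3 members higher in Ctrl_Vehicle than in Vehicle and 3 lower, beside 25.9% and 25.6% of all genes. CD274 was higher in Ctrl_Vehicle by 1.22 ± 0.26 on the log2 scale, LGALS9 by 1.38 ± 0.19 and CD47 by 0.79 ± 0.045, and PVR (-0.31 ± 0.059), NECTIN2 (-0.20 ± 0.052) and CD276 (-0.15 ± 0.045) were lower.

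A list of 18 genes of the interferon and NF-kB route to CD274 also holds inhibitors of that route, such as SOCS3. Of the 18, 12 were called higher in R4KO_1_Vehicle against Ctrl_Vehicle, beside 33.0% of all genes, and 13 in R4KO_2_Vehicle, beside 34.0%. The others did not pass in either direction. The part of these genes in the CD274 levels was not tested. STAT2, a transcription factor of type I interferon signalling, averaged 75.3 ± 4.60 CPM in R4KO_1_Vehicle and 72.2 ± 2.84 CPM in R4KO_2_Vehicle, against 35.9 ± 1.51 CPM in Ctrl_Vehicle (SD, n = 3 each). STAT3 averaged 181 ± 15.8 CPM in R4KO_1_Vehicle, against 114 ± 4.39 CPM in Ctrl_Vehicle. IRF1, a factor that acts on CD274 after interferon, averaged 94.5 ± 4.30 CPM in R4KO_2_Vehicle, against 54.6 ± 2.61 CPM in Ctrl_Vehicle. The list's median log2 fold change was 0.30 and 0.38 in the knockouts, against 0.020 and 0.018 over all genes.

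With H-151, 16 of the 18 were lower in KO_2_H151 than in R4KO_2_Vehicle, and with BX-795 15, beside 37.0% and 37.1% of all genes and with the others not called, at median log2 fold changes of -0.60 and -0.46. Set against Ctrl_Vehicle and Vehicle the counts were others. There were 1 higher and 9 lower in KO_2_H151 against Ctrl_Vehicle (beside 26.0% and 26.9% of all genes) and 2 higher and 9 lower in KO_2_BX_795 against Ctrl_Vehicle (beside 27.7% and 28.0% of all genes). There were 6 higher and 5 lower in KO_2_H151 against Vehicle (beside 23.0% and 22.7% of all genes) and 8 higher and 3 lower in KO_2_BX_795 against Vehicle (beside 26.1% and 25.6% of all genes), at medians of 0.014 and 0.12 against Vehicle. JAK1, a kinase of the interferon receptors, averaged 85.7 ± 2.27 CPM in KO_2_H151, against 145 ± 1.28 CPM in R4KO_2_Vehicle, and IRF1 averaged 38.5 ± 1.09 CPM in KO_2_BX_795, against 94.5 ± 4.30 CPM in R4KO_2_Vehicle (SD, n = 3 each). In the trio there were 12 higher and 2 lower in iR4 against Vehicle (beside 37.1% and 34.8% of all genes) and 2 higher and 12 lower in H151_iR4 against iR4 (beside 35.1% and 36.3% of all genes). SOCS3, an inhibitor of JAK signalling that the route induces, averaged 32.4 ± 4.25 CPM in iR4 and 9.78 ± 1.09 CPM in H151_iR4, against 7.94 ± 1.19 CPM in Vehicle. STAT3 averaged 128 ± 2.11 CPM in iR4 and 79.8 ± 3.10 CPM in H151_iR4, against 84.5 ± 2.45 CPM in Vehicle.

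Of 13 genes that glycosylate, stabilise or degrade PD-L1 or modify CD47, some were called in each direction in each comparison below. There were 4 higher and 5 lower in R4KO_1_Vehicle against Ctrl_Vehicle (beside 33.0% and 31.4% of all genes) and 3 higher and 6 lower in R4KO_2_Vehicle against Ctrl_Vehicle (beside 34.0% and 32.2% of all genes). There were 5 higher and 4 lower in KO_2_H151 against R4KO_2_Vehicle (beside 35.7% and 37.0% of all genes) and 5 higher and 5 lower in KO_2_BX_795 against R4KO_2_Vehicle (beside 36.4% and 37.1% of all genes). Against Vehicle there were 4 higher and 4 lower in KO_2_H151 (beside 23.0% and 22.7% of all genes). KO_2_BX_795 had 2 higher and 2 lower against Vehicle (beside 26.1% and 25.6% of all genes). In the trio there were 4 higher and 6 lower in iR4 against Vehicle (beside 37.1% and 34.8% of all genes) and 6 higher and 4 lower in H151_iR4 against iR4 (beside 35.1% and 36.3% of all genes). The list's median log2 fold change was -0.042 in R4KO_1_Vehicle, -0.067 in R4KO_2_Vehicle and -0.038 in iR4. B3GNT3, a glycosyltransferase that acts on PD-L1, averaged 73.0 ± 3.91 CPM in R4KO_2_Vehicle, against 33.1 ± 0.772 CPM in Ctrl_Vehicle, and 21.7 ± 0.772 CPM in KO_2_H151 (SD, n = 3 each). It averaged 45.7 ± 1.22 CPM in iR4 and 19.8 ± 1.58 CPM in H151_iR4, against 18.8 ± 0.445 CPM in Vehicle. STUB1, a ubiquitin ligase that marks PD-L1 for degradation, ran the other way, at 26.6 ± 1.24 CPM in R4KO_2_Vehicle, against 42.8 ± 4.48 CPM in Ctrl_Vehicle, and 59.1 ± 1.65 CPM in KO_2_H151. In the trio STUB1 averaged 35.0 ± 2.33 CPM in iR4, against 68.3 ± 1.11 CPM in Vehicle. H-151 and the set of libraries cannot be told apart in the KO_2_H151 values. QPCTL, the enzyme that modifies CD47 for binding to SIRPα, averaged 23.8 ± 1.21 CPM in R4KO_1_Vehicle, against 14.96 ± 0.301 CPM in Ctrl_Vehicle. STT3B, a subunit of the oligosaccharyltransferase, averaged 201 ± 2.84 CPM in R4KO_1_Vehicle, against 257 ± 11.9 CPM in Ctrl_Vehicle, and 264 ± 1.55 CPM in H151_iR4, against 164 ± 1.47 CPM in iR4.

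Of 24 other immune ligands, 17 were tested in the knockout set. There were 8 higher and 5 lower in R4KO_1_Vehicle against Ctrl_Vehicle (beside 33.0% and 31.4% of all genes) and 7 higher and 4 lower in R4KO_2_Vehicle against Ctrl_Vehicle (beside 34.0% and 32.2% of all genes). With the inhibitors there were 4 higher and 11 lower in KO_2_H151 against R4KO_2_Vehicle (beside 35.7% and 37.0% of all genes) and 5 higher and 10 lower in KO_2_BX_795 against R4KO_2_Vehicle (beside 36.4% and 37.1% of all genes). There were 7 higher and 4 lower in KO_2_H151 against Vehicle (beside 23.0% and 22.7% of all genes) and 7 higher and 4 lower in KO_2_BX_795 against Vehicle (beside 26.1% and 25.6% of all genes), of 18 tested. The list's median log2 fold change was 0.18 in R4KO_1_Vehicle, 0.29 in R4KO_2_Vehicle and 0.29 in iR4. HLA-E, the ligand of the inhibitory receptor NKG2A, averaged 409 ± 19.0 CPM in R4KO_1_Vehicle, 441 ± 8.88 CPM in R4KO_2_Vehicle and 283 ± 10.02 CPM in KO_2_H151, against 287 ± 8.67 CPM in Ctrl_Vehicle (SD, n = 3 each). LGALS3, which encodes galectin-3, averaged 60.2 ± 1.77 CPM in R4KO_1_Vehicle, against 29.6 ± 1.87 CPM in Ctrl_Vehicle. NT5E, the adenosine-forming enzyme CD73, averaged 20.2 ± 0.569 CPM in R4KO_2_Vehicle, against 47.3 ± 4.38 CPM in Ctrl_Vehicle, and reached 111 ± 1.77 CPM in KO_2_H151 and 136 ± 4.46 CPM in KO_2_BX_795.

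In the trio 16 of those ligands were tested, with 9 higher and 4 lower in iR4 against Vehicle (beside 37.1% and 34.8% of all genes) and 2 higher and 8 lower in H151_iR4 against iR4 (beside 35.1% and 36.3% of all genes). CD70, the ligand of CD27 on lymphocytes, averaged 28.1 ± 1.81 CPM in iR4 and 9.76 ± 0.502 CPM in H151_iR4, against 10.5 ± 1.16 CPM in Vehicle (SD, n = 3 each). CD24, a ligand of Siglec-10 on macrophages, averaged 57.9 ± 1.2 CPM in iR4, against 115 ± 5.38 CPM in Vehicle. NECTIN4, a relative of NECTIN2 that also binds TIGIT, averaged 5.11 ± 0.646 CPM in H151_iR4, against 18.3 ± 0.769 CPM in iR4. Of the 11 receptors, 4 were tested in the knockout set. There were 2 higher and 2 lower in R4KO_1_Vehicle against Ctrl_Vehicle (beside 33.0% and 31.4% of all genes). In R4KO_2_Vehicle there were 1 higher and 1 lower (beside 34.0% and 32.2% of all genes). In the trio 3 were tested, of which 1 was lower in iR4 against Vehicle (beside 34.8% of all genes) and the others were not called.

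Around IDO1, 15 genes of tryptophan and kynurenine handling were tested in the knockout set. There were 9 higher and 4 lower in R4KO_1_Vehicle against Ctrl_Vehicle (beside 33.0% and 31.4% of all genes) and 9 higher and 4 lower in R4KO_2_Vehicle against Ctrl_Vehicle (beside 34.0% and 32.2% of all genes). With the inhibitors there were 4 higher and 10 lower in KO_2_H151 against R4KO_2_Vehicle (beside 35.7% and 37.0% of all genes) and 5 higher and 9 lower in KO_2_BX_795 against R4KO_2_Vehicle (beside 36.4% and 37.1% of all genes). There were 7 higher and 4 lower in KO_2_H151 against Vehicle (beside 23.0% and 22.7% of all genes) and 3 higher and 4 lower in KO_2_BX_795 against Vehicle (beside 26.1% and 25.6% of all genes). In the trio 13 were tested, with 8 higher and 3 lower in iR4 against Vehicle (beside 37.1% and 34.8% of all genes) and 3 higher and 9 lower in H151_iR4 against iR4 (beside 35.1% and 36.3% of all genes). The list's median log2 fold change was 0.60 in R4KO_1_Vehicle, 0.68 in R4KO_2_Vehicle and 0.86 in iR4. The named genes of the list are targets of the aryl hydrocarbon receptor, which kynurenine and many other compounds activate. CYP1A1 averaged 22.4 ± 2.83 CPM in R4KO_1_Vehicle, 18.0 ± 0.706 CPM in R4KO_2_Vehicle and 4.88 ± 0.479 CPM in KO_2_H151, against 2.78 ± 0.312 CPM in Ctrl_Vehicle (SD, n = 3 each). It averaged 21.5 ± 0.827 CPM in iR4 and 4.95 ± 0.270 CPM in H151_iR4, against 2.93 ± 0.186 CPM in Vehicle. CYP1B1 averaged 36.4 ± 3.31 CPM in R4KO_1_Vehicle and 9.38 ± 0.668 CPM in KO_2_H151, against 11.1 ± 0.402 CPM in Ctrl_Vehicle. TIPARP averaged 236 ± 16.7 CPM in iR4 and 115 ± 2.50 CPM in H151_iR4, against 89.0 ± 3.93 CPM in Vehicle. IDO1 itself averaged under 1 CPM in all of these groups.

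As a description, each member tested in both the knockout set and the trio was set beside 10964 genes averaging at least 2 log2 CPM. That minimum was not asked of the members. The measure was Pearson's r of log2 CPM, centred within the knockout set and within the trio, over the 24 libraries, which share groups. CD274 was most like WDR25 (r = 0.934), IL1B (0.931) and LMO4 (0.931). CD276 was most like MGAT4B (r = 0.948), EDC3 (0.931) and HEXA (0.915); EDC3 and HEXA lie on chromosome 15, as CD276 does. CD47 was most like CLEC2B (r = 0.983), TFPI (0.982) and FGFBP1 (0.978), and LGALS9 most like FDPS (r = 0.974), C1R (0.968) and DDR1 (0.964). PVR was most like MAFK (r = 0.959), CCDC9 (0.944) and CARS1 (0.940), and NECTIN2 most like SCAND1 (r = 0.961), SLC52A3 (0.958) and ZNF592 (0.954). Among the members themselves, PVR and NECTIN2 had r = 0.835, CD47 and LGALS9 0.833, and CD276 and NECTIN2 0.696, while CD47 and NECTIN2 had r = -0.679.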

How the data were processed

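The authors deposited 1 table of raw read counts per gene for each library. The submitters' processing notes name Trim Galore 0.6.4, HISAT2 2.2.1, featureCounts 2.0.1, DESeq2 1.42.0 and the hg38 build, and the labels' protocols describe oligo(dT) enrichment. No strand setting or annotation version is recorded in the sources used here. The 4 mouse libraries were not used.

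The deposited counts were fitted with edgeR 4.0.16 in R 4.3.3, using TMM factors, filterByExpr (smallest count 10), quasi-likelihood F tests and Benjamini-Hochberg adjustment over all genes tested, with a threshold of 0.05. The 15 libraries of the knockout set, Ctrl_Vehicle included (14348 genes tested), and the 9 libraries of the iR4 trio (14000) were fitted apart. All 24 (14585) were fitted together for differences of effects and comparisons across these sets. SEs were derived from the F statistic. Levels are CPM on 1 TMM scale over the 24 libraries, and levels per kilobase use GENCODE v29 exon lengths. Exact 95% intervals of ratios, and the floor of 3 counts, cover counting error only. The fitting procedure was tested on simulated data. Alternatives were RLE factors, DESeq2, no filter and a stricter filter, 2-group and 24-library fits, the replicate block and leaving out each library. Comparisons of Ctrl_Vehicle with Vehicle, and of the inhibitor groups with R4KO_1_Vehicle and Vehicle, were chosen after seeing the data, as were the count of genes marking each knockout and the member counts without IDO1 or PDCD1LG2.

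The 9 members are named throughout, with up to 2 genes per companion list and main comparison (lowest adjusted p among genes that passed, did not overlap and averaged at least 2 log2 CPM) and 3 genes per member by likeness. Members and lists were chosen with earlier results of these data known.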

Additional observations from a re-analysis of the deposited data

Results flagged for a closer look

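The log2 difference between H151_iR4 and iR4 was not the same as that between KO_2_H151 and R4KO_2_Vehicle for 5 members, by edgeR's test (the first minus the second). The differences were -0.87 for CD274, 0.85 for CD47, 2.46 for LGALS9, -0.58 for NECTIN2 and -0.78 for PVR. CD47 and LGALS9 were called lower in KO_2_H151 and not called in H151_iR4, PVR and NECTIN2 were lower in H151_iR4 and higher in KO_2_H151, and CD274 was lower in both. The vehicle groups of the 2 sets already differed for all 5, and the part of that difference in these values was not tested. KO_2_H151 also differed from R4KO_2_Vehicle in depth, overall profile and REXO4 level, so H-151 and the set of libraries cannot be told apart.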

How the results depend on the processing

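Over 131 member results, 1712 alternatives were computed: 1623 kept direction and side of the threshold, 58 lost the call, 10 gained a call and 21 changed sign. Among the 1180 alternatives to the 91 called results, 0 changed sign and 58 lost the call. Results that changed sign were all uncalled, and their log2 values with single libraries left out ran as follows. For KO_2_H151 against R4KO_2_Vehicle, CD276 ran -0.029 to 0.018, and it was 0.0039 with no filter. For KO_2_H151 against Ctrl_Vehicle, CD274 ran -0.034 to 0.15. For H151_iR4 against Vehicle, LGALS9 ran -0.31 to 0.021. For the iR4 effect minus the mean knockout effect, PDCD1LG2 ran -0.13 to 0.97, CD47 -0.011 to 0.037 and IDO1 -0.89 to 2.57. For Ctrl_Vehicle against Vehicle, PDCD1LG2 ran -0.23 to 0.87. For KO_2_H151 against Vehicle, PDCD1LG2 ran -0.11 to 0.80, LGALS9 -0.10 to 0.22 and IDO1 -1.91 to 1.72. For KO_2_BX_795 against Vehicle, CD47 ran -0.049 to 0.020. The cause was not tested.

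Of 312 alternatives to the counts of calls in the 6 main comparisons, 310 stayed within 1.5 times; the members higher in KO_2_BX_795 than in R4KO_2_Vehicle were 1 to 2 with single libraries left out. Between the inhibitors, 814 genes were higher and 573 lower in KO_2_BX_795, against 1405 and 1248 in a fit of those 2 groups, and 492 to 621 and 299 to 394 with single libraries left out. With the replicate number as a block, the counts of members called were the same in each comparison fitted that way (in R4KO_1_Vehicle against Ctrl_Vehicle 6 higher), and same-numbered libraries did not deviate together, with correlations of -0.069 to 0.19. Depth limits PDCD1LG2, IDO1 and VTCN1, whose 33 to 166 counts over 24 libraries leave wide intervals.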
